A study of Homo sapiens with 6 samples.

Results

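The lengths of RNA protected by small ribosomal subunits (40S) around start codons were compared between subunits still upstream of the start codon and subunits placed on it. The data were the 2 unselected 40S libraries of a series of 6 libraries, chosen by their fraction and not by any measured value. All libraries came from HEK293T, a human embryonic kidney cell line, grown for 48 h at 37 °C and fixed with 0.3% formaldehyde for 5 min, and no group was untreated or unfixed. For the 40S libraries, RNase I removed unprotected RNA and the 40S fraction was separated without any antibody. The 2 unselected whole-ribosome (80S) libraries, made in the same way from the other fraction, served for comparison, and a library of eIF3b-bound 40S and 1 of mRNA were not used for lengths.

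Translation begins when a 40S subunit with initiation factors and initiator tRNA binds near the cap of an mRNA and moves along the leader until it meets a start codon. Formaldehyde fixes subunits and factors to the RNA, so that nuclease digestion leaves a fragment whose ends mark the edges of the complex. A fragment can be longer when factors or neighbouring complexes shield RNA next to the subunit, and shorter when the nuclease cuts into the complex. The position of the 5′ end, the position of the 3′ end and the length therefore describe the complex together.

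The deposited counts gave the number of footprints for each position of the 5′ end, from -80 to +30 relative to the start codon, and for each length from 18 to 98 nt, summed over genes. Position 0 was taken as the first base of the start codon, and the 3′ end as the 5′ end plus the length minus 1. 40S 1 held 151159 footprints and 40S 2 held 69122, against 205451 in 80S 1 and 94512 in 80S 2. 5′ ends at -80 to -41 were called the scanning window, 5′ ends at -14 to -12 the start codon window, and those at -40 to -15 the window between. The scanning window took 27.6% of all 5′ ends in 40S 1 and 26.6% in 40S 2, against 13.9% in 80S 1 and 10.8% in 80S 2, so the 40S libraries did not overlap the 80S libraries. In 40S 1, the one unselected library with counts per gene used here, 2 of 6 genes listed as typical of HEK293T, KRT8 and NEFM, were in the table with 100 and 50 counts. The other 4, which include VIM and KRT18, were not in the table given. Of 6 markers of other cell types, CD3E and HBB were in it, both at 0. Whether 40S 1 and 40S 2 were grown as separate cultures is not stated in the labels, and their spread may be technical only. With 2 libraries against 2, the exact two-sided permutation test cannot give a p below 0.333, so no comparison here could pass a threshold of 0.05. Among 23 comparisons tested the smallest p adjusted by the Benjamini-Hochberg method was 0.59, and 13 comparisons had groups that did not overlap.

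In the scanning window, 40S footprints had no single typical length. They were spread from short to long in both libraries, while at the start codon they formed a narrow peak. In 40S 1 the median was 44 nt in the scanning window, with quartiles of 33 and 58 nt, and 37 nt at the start codon, with quartiles of 33 and 40 nt. In 40S 2 it was 37 nt with quartiles of 27 and 55 nt, and 32 nt with quartiles of 30 and 35 nt. The interquartile range was thus 26.5 nt ± 2.12 (SD, n = 2) in the scanning window and 6 nt ± 1.41 (SD, n = 2) at the start codon, and it was wider in the scanning window in 2 of 2 libraries. The exact permutation test of this range gave p = 0.333, the smallest possible. The middle 90% of footprints ran from 22 to 75 nt in the scanning window of 40S 1 and from 20 to 67 nt in that of 40S 2. At the start codon it ran from 25 to 51 nt and from 22 to 44 nt.

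**Figure D1:**
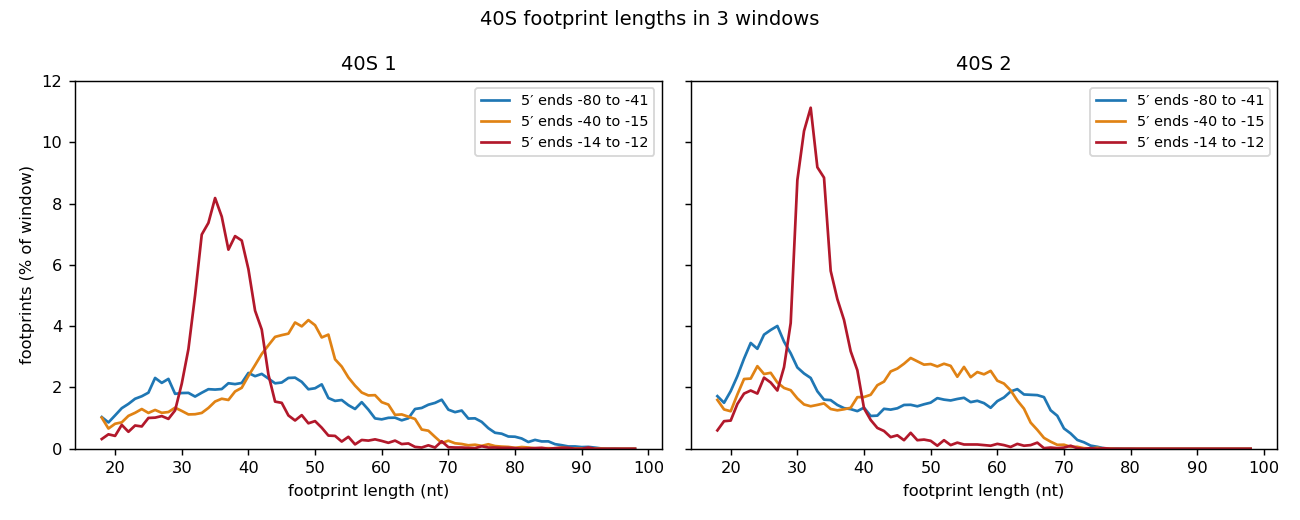
Share of 40S footprints (y axis, percent of each window) by footprint length (x axis, nt) for 5′ ends at -80 to -41, -40 to -15 and -14 to -12, one panel per library. The start codon window has a narrow peak at 35 nt in 40S 1 and 32 nt in 40S 2, while the scanning window is spread over the whole range.

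The shift in the median was smaller than the change in spread. Scanning medians exceeded start codon medians by 7 nt in 40S 1 and 5 nt in 40S 2, a mean difference of 6 nt ± 1.41 (SD, n = 2). It was 10 nt when footprints under 25 nt were left out (exact permutation p = 0.333). The 2 libraries themselves differed by as much as the windows, since the scanning median of 40S 2 equalled the start codon median of 40S 1. Across libraries the windows therefore overlapped, and the exact permutation test gave p = 0.667. That test ignores that both windows come from the same libraries. Paired by library, the exact sign-flip test gave p = 0.5, the smallest possible with 2 pairs. Counting error was small beside the difference between libraries. The exact 95% interval of the median was 44 to 44 nt in the scanning window of 40S 1 and 37 to 38 nt in that of 40S 2. These intervals reflect counting error alone, because the reads carry no molecular identifiers and need not be independent molecules.

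By length class, the scanning window had more of the longest footprints, and the start codon window more of those of 25 to 44 nt. Footprints of 60 nt or more made up 23.1% of the scanning window in 40S 1 (exact Clopper-Pearson interval 22.7 to 23.5%) and 18.2% in 40S 2 (17.7 to 18.8%). At the start codon they made up 2.17% (1.89 to 2.48%) and 1.20% (0.92 to 1.54%). Footprints of 45 to 59 nt followed the same order, with 26.3% and 22.6% in the scanning window against 9.52% and 3.42% at the start codon. The range from 25 to 44 nt took 84.3% of the start codon window in 40S 1 and 86% in 40S 2. Within this range the libraries differed in their main class. In 40S 1 the class of 35 to 44 nt led at the start codon, with 54.2%, and in 40S 2 the class of 25 to 34 nt, with 61.4%. Short footprints of 18 to 24 nt were more frequent in the scanning window of each library, with 9.12% against 4.03% in 40S 1 and 17.1% against 9.39% in 40S 2. For this class the windows overlapped across libraries (exact permutation p = 0.667), while the other 4 classes had no overlap (p = 0.333 each). With the first length read as 19 nt, scanning minus start codon for 25 to 34 nt was -13.9 percentage points in place of -21.5, and the windows overlapped (exact permutation p = 0.667).

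The most frequent length held a larger share at the start codon than upstream, though neighbouring lengths came close to it. At the start codon 35 nt held 8.18% of the footprints in 40S 1, and 32 nt held 11.1% in 40S 2. Beside them, 34 and 36 nt held 7.37% and 7.58% in 40S 1, and 31 and 33 nt held 10.4% and 9.19% in 40S 2. In the scanning window the most frequent length held 2.47% in 40S 1, at 40 nt, and 4.01% in 40S 2, at 27 nt. 40S 1 had further local maxima in the scanning window at 26, 47, 51, 57, 62 and 69 nt, and 40S 2 at 40, 51, 55 and 63 nt. A local maximum was a length above the 2 lengths on either side with at least 1% of the window. Both libraries thus had a short group near 26 to 27 nt and a long group above 60 nt. At the start codon the only other local maxima were at 48 nt in 40S 1, with 1.10%, and at 25 nt in 40S 2, with 2.32%.

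A part of the footprints whose 5′ end lay in the scanning window reached over the start codon. Their 3′ end lay at +3 or beyond in 21.4% of the scanning window of 40S 1 (interval 21 to 21.8%) and in 17.3% of that of 40S 2 (16.7 to 17.8%). Most of the window, 75.9% and 80.2%, ended at -1 or before. The footprints that crossed the start codon lay mainly in the part of the window nearer to it, from where a shorter length is enough. Such crossing footprints were 36.4% and 30.1% from -60 to -41, and 4.77% and 0.97% from -80 to -61. The length range limits these last values. The longest length with at least 10 counts was 92 nt for 40S 1 and 75 nt for 40S 2. The 5′ position alone therefore did not separate footprints that ended before the start codon from footprints that covered it.

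The comparison was repeated with 5′ ends at -80 to -61 and lengths up to 60 nt, since such footprints cannot reach the start codon. The scanning median was then 40 nt in 40S 1 and 34 nt in 40S 2, against 36 and 32 nt at the start codon under the same limit. The mean difference was 3 nt (exact permutation p = 0.667), and that of the interquartile range 13 nt (p = 0.333) in place of 20.5 nt. The upstream footprints remained widely spread, with quartiles of 31 and 48 nt in 40S 1 and of 26 and 47 nt in 40S 2. Their most frequent lengths were 40 nt and 25 nt. In 40S 2 the class of 25 to 34 nt held 33.4% of them and the class of 45 to 59 nt 28.5%, with 17.7% in between at 35 to 44 nt. In 40S 1 the classes rose with length instead, with 22.8%, 30.7% and 34.3% from 25 to 34, 35 to 44 and 45 to 59 nt. This limit was chosen after the profiles had been seen.

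**Figure D2:**
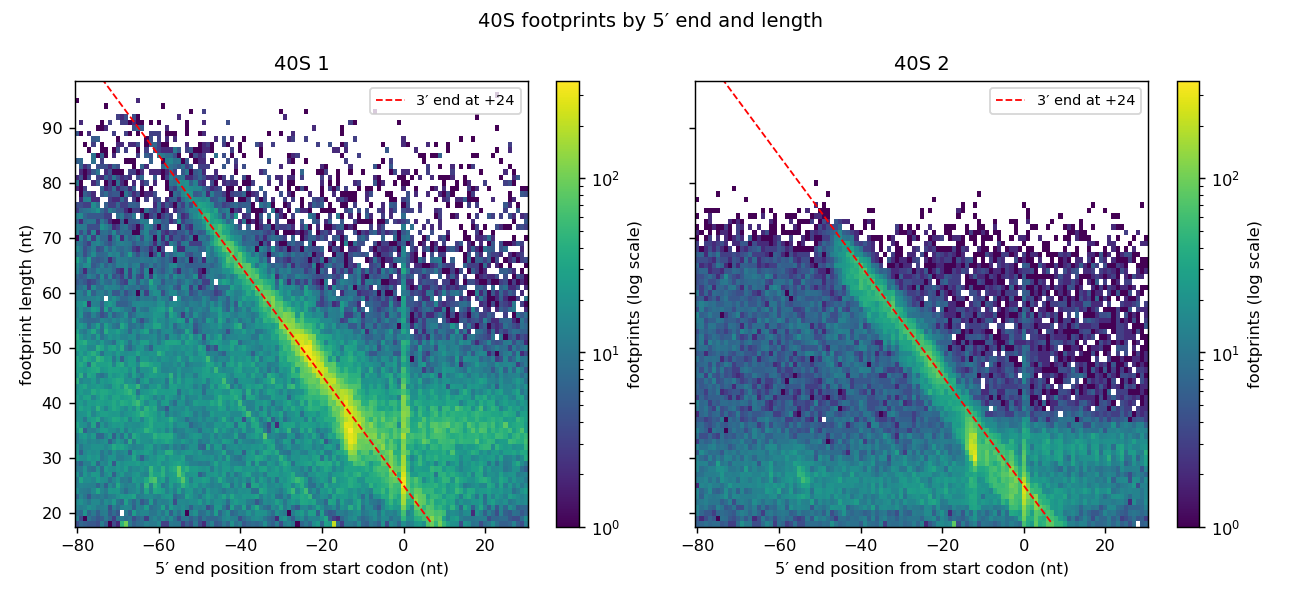
Number of 40S footprints (colour, log scale) by position of the 5′ end (x axis, nt from the start codon) and footprint length (y axis, nt), one panel per library. The dashed line marks a 3′ end at +24, and a band of footprints runs along it from long footprints upstream of -40 down to the shortest lengths past position 0.

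The window between the other 2 had the highest median length in each library, but by the mean it did not differ from the scanning window in a fixed direction. Its median was 46 nt in 40S 1 (quartiles 38 and 53 nt) and 45 nt in 40S 2 (quartiles 30 and 54 nt), above both other windows in each library. It exceeded the start codon window by 9 and 13 nt and the scanning window by 2 and 8 nt (40S 1 and 40S 2, exact permutation p = 0.333 for both). The mean length was 46.01 nt in the scanning window and 45.2 nt in the window between in 40S 1, and 40.8 and 42.9 nt in 40S 2. Scanning minus between was thus -5 nt by the median and -0.68 nt by the mean (exact permutation p = 1), -3.5 nt with single high counts limited (p = 0.667) and -2 nt without footprints under 25 nt (p = 0.333). Lengths of 45 to 59 nt made up 46.5% of the window in 40S 1 and 39.7% in 40S 2. Here 49 nt was the most frequent length of 40S 1, and 47 nt that of 40S 2.

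Within the window between, the median length fell toward the start codon, over all of it in 40S 2 and mainly over its nearer part in 40S 1. From -40 to -15 the slope was -0.37 nt per position in 40S 1 and -0.88 in 40S 2, over 26 positions. The median 3′ end ran from +9 to +24 over these positions in 40S 1 and from +17 to +22 in 40S 2. From -30, a border chosen after the profiles had been seen, the fall was steeper. In 40S 1 the median length fell from 52 nt at -30 to 40 nt at -15, a slope of -0.84 nt per position over 16 positions. In 40S 2 it fell from 51 to 35 nt, a slope of -1.07 nt per position. A slope of -1 is what a fixed 3′ end gives. Neighbouring positions share the same mRNAs, so these slopes are descriptions without a test. From -30 to -15 the median 3′ end stayed between +21 and +24 in 40S 1 and between +18 and +22 in 40S 2. From -80 to -61 the slopes were -0.31 in 40S 1, close to its value from -40 to -15, and -0.28 in 40S 2. The lowest median of the scanning window was 39 nt, at -62, for 40S 1 and 29 nt, at -54, for 40S 2. Nearer to the start codon it rose to 53 nt at -43 in 40S 1 and to 58 nt at -40 in 40S 2.

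**Figure D3:**
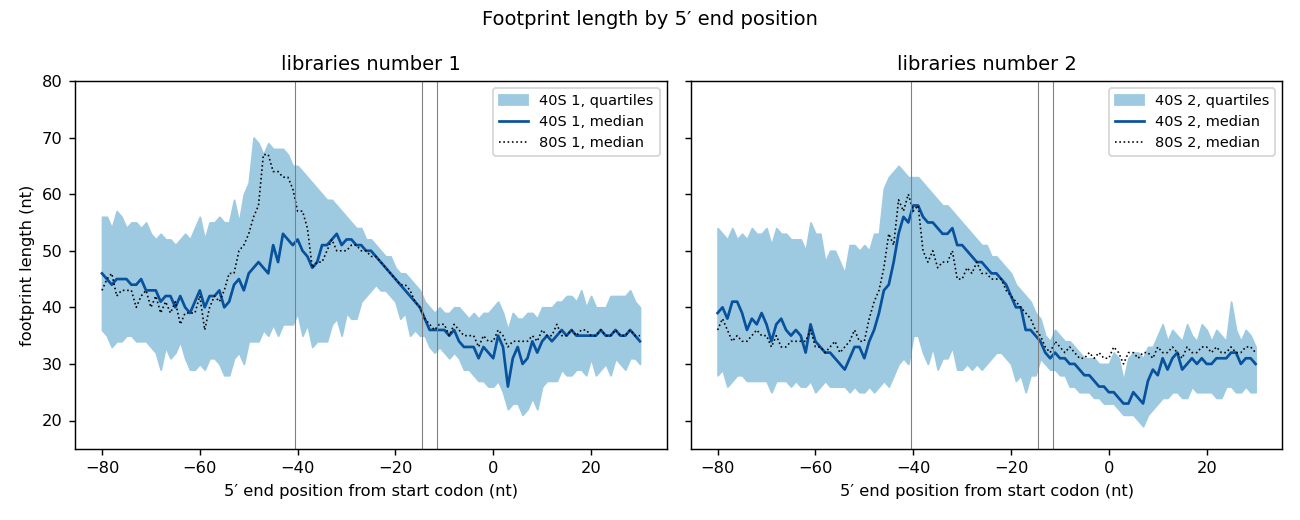
Footprint length (y axis, nt) by position of the 5′ end (x axis, nt from the start codon) for the number 1 and number 2 libraries. Solid lines are 40S medians, shaded bands the 40S quartiles, dotted lines 80S medians, and vertical lines the window borders. Medians rise to 53 nt in 40S 1 and 58 nt in 40S 2 near -40 and then fall toward the start codon.

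Read by their 3′ ends, most footprints of the window between already covered the start codon. The 3′ end lay at +3 or beyond in 85.4% of them in 40S 1 (interval 85.1 to 85.8%) and 77.3% in 40S 2 (76.8 to 77.9%). It lay between +16 and +28 in 59.1% and 55.7%. That stretch, chosen after the profiles had been seen, holds the peak of 3′ ends in both windows. It took 75.6% and 74.2% of the footprints of the start codon window, and 11.6% and 9.22% of those of the scanning window. In 40S 2 the long end of the length range limited this last value. From a 5′ end at -60 a footprint needs 77 nt to reach +16, and the longest length with at least 10 counts was 75 nt for 40S 2, against 92 nt for 40S 1.

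Counted from the 3′ side, the narrow peak at -14 to -12 was the smaller part of the footprints with this 3′ edge. Of all footprints with a 3′ end at +16 to +28, 13.2% had their 5′ end at -14 to -12 in 40S 1 and 12.6% in 40S 2. From -40 to -15 lay 50% and 38.4%, from -80 to -41 lay 8.66% and 5.78%, from -11 to -1 lay 17.6% and 25%, and from 0 to +11 lay 10.5% and 18.1%. These windows differ in width, so the shares are not densities. Counted over all footprints, whatever their 3′ end, the start codon window was the densest of the 3 compared. It had 3247 5′ ends per position in 40S 1 against 1818 in the window between and 1041 in the scanning window. In 40S 2 the same densities were 1665, 779 and 460.

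**Figure D4:**
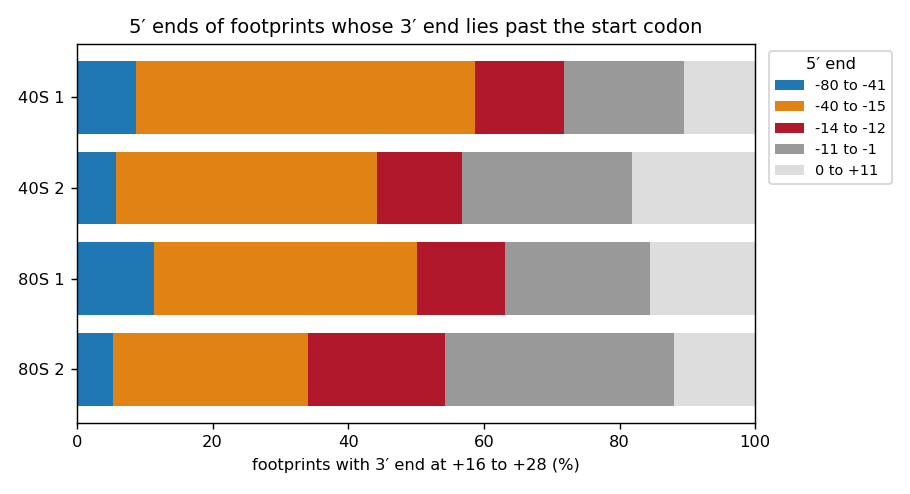
Footprints with a 3′ end at +16 to +28 divided by the position of their 5′ end (bar segments, percent of these footprints), one bar per library. The segment for 5′ ends at -40 to -15 takes 50% and 38.4% in the 40S libraries and 38.8% and 28.7% in the 80S libraries.

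The upstream-extended footprints had a preferred form of their own. Among footprints with a 3′ end at +16 to +28 and a 5′ end from -40 to -18, the most frequent 5′ end was -23 in both 40S libraries, with 2096 footprints in 40S 1 and 640 in 40S 2. At that position the most frequent 3′ end was +24 in both, a footprint of 48 nt. At the start codon peak the most frequent form was shorter at both ends. In 40S 1 it was 35 nt long, from -13 to +21, and in 40S 2 it was 30 nt long, from -12 to +17.

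Among 3′ ends at +16 to +28, the 3′ end thus lay closer to the start codon in footprints of the narrow peak than in footprints extended upstream. Over all 3′ ends this did not hold at every position. In 40S 1 the median 3′ end was +11 at -40 and +24 at -15, against +22 at -13. In 40S 2 it was +17 at -40 and +22 at -23, against +18 at -13. Within +16 to +28 the median 3′ end was +24 in the window between and +22 at the start codon in 40S 1, and +23 and +19 in 40S 2. The difference was 3 nt ± 1.41 (SD, n = 2), in the same direction in 2 of 2 libraries and without overlap (exact permutation p = 0.333). The 80S libraries had the same direction, with +24 and +22 in 80S 1 and +22 and +19 in 80S 2. Footprints ending at +16 to +20 made up 33.2% of this stretch at the start codon and 17.2% in the window between in 40S 1, and 65.4% and 25.8% in 40S 2. Of the 44 positions of the 5′ end from -40 to +3, 41 in 40S 1 and 36 in 40S 2 had their most frequent 3′ end of this stretch at +23 to +26. Of the positions -14 to -12, 1 in 40S 1 and 0 in 40S 2 were among these, so -13 and -12 of 40S 1 and all 3 of 40S 2 had a nearer one. Outside the peak, 1 position in 40S 1 (-8) had a farther 3′ end, at +27, and 5 positions in 40S 2 (-16, -11, -10, -9 and -4) a nearer one, at +19 to +22. Footprints whose 5′ end lay at position 0 again had their most frequent 3′ end at +24 in both libraries, as a footprint of 25 nt.

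**Figure D5:**
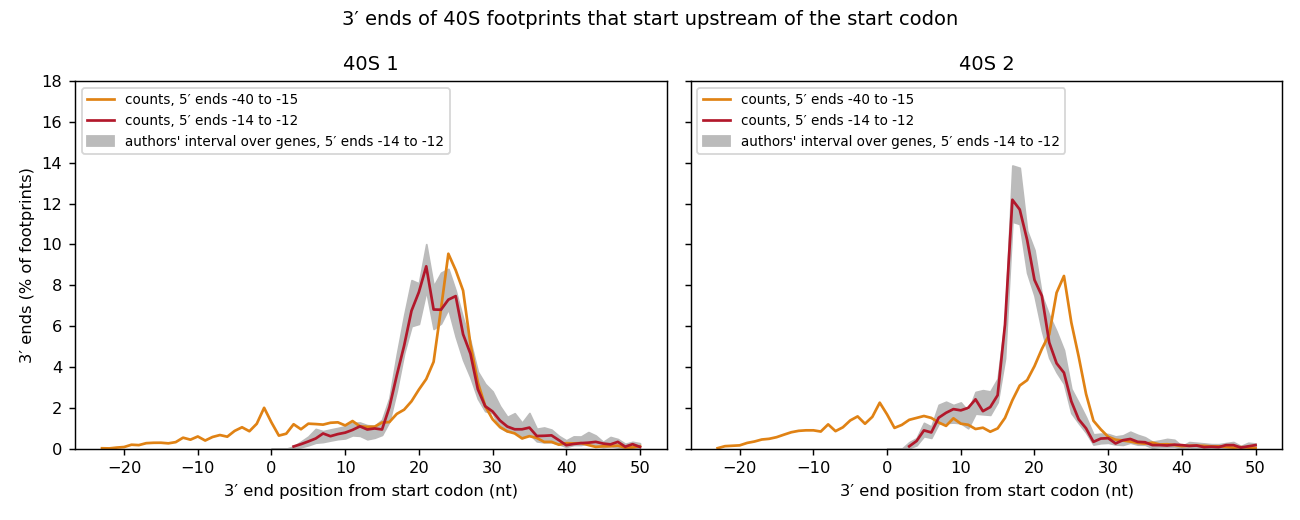
Share of 3′ ends (y axis, percent of footprints) by position (x axis, nt from the start codon) for 40S footprints with 5′ ends at -40 to -15 and at -14 to -12. The grey band is the authors' interval of the mean over genes for the latter. The peak lies at +24 for the upstream-extended footprints of both libraries, and at +21 (40S 1) or +17 (40S 2) for the start codon window.

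The authors' means over genes had the same most frequent 3′ ends as the summed counts. The first length of the counts was read from these same deposited 3′ ends. The match in position and in mean length is therefore not an independent check. Summed counts are led by the mRNAs with most footprints, while the authors' means, deposited as fractions computed gene by gene, give every gene the same weight. In these means the most frequent 3′ end of footprints with 5′ ends at -14 to -12 was +21 in 40S 1, with 8.84%. The authors' 95 percentile interval of this mean over genes was 7.73 to 10.0%, which is not the range of single genes. In 40S 2 it was +17 with 12.5% (11.1 to 13.9%). The summed counts had their peak at the same positions, with 9.04% and 12.3%. Of 48 positions with any 3′ end, the summed counts lay inside the authors' interval at 48 in 40S 1 and at 45 in 40S 2. The mean length was 37.2 nt weighted by gene and 37.0 nt from the counts in 40S 1, and 32.7 and 32.5 nt in 40S 2. These means leave out 3′ ends past +50, which were 1.19% and 0.56% of the counts.

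Within the peak the libraries differed in which 5′ end led. Weighted by gene, -13 led in 40S 1 with 36.5% (interval 33.8 to 39.2%), ahead of -14 with 34.3% (30.7 to 37.9%), and these 2 intervals overlap. In 40S 2, -12 led with 40.6% (37.76 to 43.3%), ahead of -13 with 35.9% (33.9 to 37.95%), and these intervals overlap too. There -14 had 23.5% (21.2 to 26.1%). Median length fell across the peak, from 38 nt at -14 to 36 nt at -12 in 40S 1 and from 34 to 31 nt in 40S 2. In 40S 1 footprints starting at -14 most often ended at +25, and those at -13 and -12 at +21 and +20. In 40S 2 all 3 positions most often ended at +17 or +18.

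Against the 80S fraction, the 40S footprints were not separated by how the median length changed between windows. Fewer of them reached over the start codon from the scanning window taken as a whole, but not in each part of it. The difference between scanning and start codon medians was 7 and 5 nt in the 40S libraries and 9 and 4 nt in the 80S libraries, within the spread of the libraries (exact permutation p = 1). The contrast in spread was present in 80S as well. Its interquartile range was 37 nt in the scanning window against 8 nt at the start codon in 80S 1, and 27 against 5 nt in 80S 2. In the scanning window, 21.4% and 17.3% of the 40S footprints crossed to +3 or beyond, against 34.1% in 80S 1 and 23.2% in 80S 2. Footprints of 60 nt or more there were likewise fewer in 40S, with 23.1% and 18.2% against 35.8% and 23.1%. By the rounded values 40S 1 and 80S 2 nearly touch: unrounded they were 23.07% and 23.09%, a gap far inside the counting interval. Over the whole scanning window, these differences between 40S and 80S had p = 0.333 by the exact permutation test. In each part of it the crossing shares of the fractions overlapped. From -60 to -41 they were 36.4% and 30.1% in 40S against 48.9% and 35.9% in 80S. From -80 to -61 they were 4.77% and 0.97% against 8.80% and 2.20%. In the window between they overlapped too, with 85.4% and 77.3% against 85.9% and 83.2% (exact permutation p = 0.667). Among 5′ ends from -40 to -18, the preferred upstream-extended form, from -23 to +24, was the same in all 4 libraries. In 80S 2 this depended on the border at -18. There -15 held 1012 footprints, 79.3% of them ending at +16 to +28, against 813 and 66.1% at -23. Footprints ending at +16 to +28 were 3.79 and 3.04 times as many in the window between as at the start codon in 40S, and 2.99 and 1.42 times in 80S. The nearest libraries of the 2 fractions, 40S 2 and 80S 1, again lay close.

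Past the start codon the 40S libraries held more short footprints than the 80S libraries. For 5′ ends at +1 to +30, lengths of 18 to 24 nt made up 20.2% in 40S 1 and 37.3% in 40S 2, against 14.1% in 80S 1 and 11% in 80S 2 (exact permutation p = 0.333). In the scanning window the same class did not separate the fractions, with 9.12% and 17.1% in 40S against 12.1% and 10.7% in 80S. The share of short footprints went with the library number in 40S, where 40S 2 exceeded 40S 1 in every window. The labels state that paired-end reads were made for the number 1 libraries and that read 1 alone was analysed. Read layout, library number and the overall length of footprints therefore cannot be told apart.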

How the data were processed

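The submitters' processing notes name TopHat2 2.1.0, Bowtie2 2.2.6, Bowtie 1.2.2 and CASAVA 1.8, and genome build GRCh38. Which step each performed, how reads were counted and which genes were summed is not given in the sources used here. For each library the authors deposited unscaled counts of 5′ ends by position and footprint length. Their 81 length columns have no header. The first was read as 18 nt: in the authors' deposited fraction per gene, the earliest 3′ end is +3 for 5′ ends beginning at -14. This could not be checked for 80S. The number of unmapped columns was 0.

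Within each window counts were added up over positions. Medians, quartiles, shares and exact 95% intervals were computed with numpy 2.4.6 and scipy 1.17.1. A median's interval came from the binomial order statistics. Library values were compared with an exact two-sided permutation test of the means. All windows of a library share it, so a paired test was an alternative. Lengths and positions were named by rule: the most frequent length, local maxima, the top position, window borders, position 0 and the highest and lowest medians. The members, windows and lists were chosen with earlier results of these data known, and the stretch from +16 to +28, the comparisons using it and those of single length classes with 80S were added after the profiles were seen. On simulated tables, differences of 0, 5 and 10 nt were recovered within 0 nt. Their lengths formed a single narrow peak, unlike the wide scanning window of these data, so this checks the calculation only. No gene-level test was run, because lengths were deposited summed over genes.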

Additional observations from a re-analysis of the deposited data

How the results depend on the processing

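Of 14 results, 12 kept their direction under every alternative run for them. The exceptions were the difference between 40S and 80S in the shift of the median and the difference of gene-weighted and summed mean length. Direction was the sign of the mean over both libraries. It could not change for the share past the start codon or the most frequent 3′ end. By mean length, scanning minus between kept its sign only as a mean, since 40S 1 and 40S 2 had opposite signs. The alternatives were other windows, equal weight per position, limits on length, a limit on single high counts, means and other first lengths. With a replicate block, pairing the windows of a library, the exact sign-flip test gave p = 0.5 for every comparison of 40S windows, the smallest possible with 2 pairs, and 1 for the difference between 40S and 80S, so no call changed. That difference between 40S and 80S in the shift of the median, -0.5 nt, had no stable sign. It was 0.5 nt with equal weight per position or without footprints under 25 nt, 0 with the start codon window at -16 to -10, 1.5 nt with single high counts limited, and 2.5 nt with the scanning window at -80 to -61 or without footprints over 70 nt. It was 3 nt with -80 to -61 and lengths up to 60 nt, which was added after seeing the data. Leaving out a library gave -2 to 1 nt. The cause was not tested. The share of the window between with a 3′ end past the start codon, 81.4%, was 71.1% when counted from +11. The difference of gene-weighted and summed mean length, 0.211 nt, was 1.17 nt with a first length of 17 nt and -0.748 nt with 19 nt, as the shift by 1 nt itself gives. The share of 18 to 24 nt has no value without footprints under 25 nt. Depth left counting intervals of medians within 1 nt at the windows compared, so the 2 libraries per fraction limit precision, not the counts.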

Other observations

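Both 40S libraries had a sharp edge at the start codon itself. 5′ ends at position 0 numbered 4462 in 40S 1 and 2405 in 40S 2, 3.03 and 2.53 times the mean of the 6 positions around it. 3′ ends at -1, the base before, numbered 1873 and 739, 2.00 and 1.59 times the mean of the 6 positions around it. Of the footprints with a 5′ end at 0, 45.05% in 40S 1 and 74.3% in 40S 2 had their 3′ end at +16 to +28. 3′ ends at +1 and +2 numbered 648 and 660 in 40S 1 and 322 and 410 in 40S 2, against means of 935 and 465 over those 6 positions. The 80S libraries had the same pair, with 3.22 and 2.53 times at position 0 and 2.10 and 1.75 times at -1. What sets this edge was not tested.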
